A study of Mus musculus with 15 samples.

Results

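Single Tomato+ cells of mouse inguinal white fat were divided by their level of Prrx1, the gene whose regulatory sequence drives the Cre recombinase of the reporter. The division was chosen by the Prrx1 value itself: 10 of the 15 cells stood at 3 or more on the log2(FPKM + 1) scale and are called Prrx1-high, and 5 stood below 3 and are called Prrx1-low. All 15 cells came from adult C57BL/6 mice with the genotype Prrx1-CreERT;Tomato, given daily injections of tamoxifen for 3 days at 2 mg per 30 g mouse. Digestion of the fat lasted 1 h at 37 °C in 2 mg/ml type II collagenase, and the suspension passed strainers of 70 and 40 µm before Tomato sorting and picking of single cells with a fluorescence microscope. No untreated, Tomato-negative or Prrx1-deficient cells are among the samples used here.

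CreERT is a Cre recombinase held inactive until tamoxifen is given, and the recombination it causes in the reporter is permanent. Tomato therefore records that the Cre driver was active around the time of the injections, while the Prrx1 level records the transcript at the time of picking. How many mice the cells came from is not stated, so the 15 cells count as 1 sample of possibly shared animals, and every difference below is a description of these cells with no p-value. Each level is a deposited log2(FPKM + 1) value, each difference is the median of the Prrx1-high cells minus the median of the Prrx1-low cells in log2 units, and detection means a level of at least 1 FPKM.

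Prrx1 encodes a paired-class homeobox transcription factor of limb, skeletal and connective tissue mesenchyme, and its paralogue Prrx2 is a close relative with overlapping expression in the embryo. Homeodomain proteins bind short AT-rich sequences with TAAT at their core. In subcutaneous fat, fibroblast-like stromal cells include interstitial progenitors marked by Dpp4 and preadipocytes that are committed to the adipocyte lineage. The committed cells take up and carry fatty acids through products such as Cd36, Lpl and Fabp4.

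Prrx1 (ENSMUSG00000026586, minus strand of chromosome 1, 163245119 to 163313710 in GRCm38) ranged from 3.97 to 7.56 in the Prrx1-high cells, with a median of 5.11. In the low cells 3, 4, 12, 13 and 15 it stood at 0.68, 1.12, 0.22, 0.43 and 2.08. The member just inside the threshold was cell 6 at 3.97 and the member just outside was cell 15 at 2.08. Cells 4 and 15 passed 1 FPKM, so a low cell was not a cell without Prrx1 transcript. These values made the sets and are no finding.

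Prrx2 did not follow the division at 3, but its difference depended on where Prrx1 was divided. Its level in the Prrx1-high cells ran from 0.39 in cell 14 to 9.29 in cell 6, with a median of 2.62. In low cells 3, 4, 12, 13 and 15 it stood at 0.00, 2.35, 7.57, 0.00 and 3.75. The ranges overlapped over most of their length, and the difference of 0.27 became −0.43 without cell 13. It was 2.79 with Prrx1 divided at 1 FPKM, which leaves cells 3, 12 and 13 low. With cells 4 and 15 left out it was 2.62. Cell 12 stayed a low cell with a high Prrx2 level in both settings. Prrx2 was detected in 9 of 10 high cells and 3 of 5 low cells, and its Spearman correlation with Prrx1 was 0.08 over the 15 cells, which share an unknown number of mice.

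**Figure D1:**
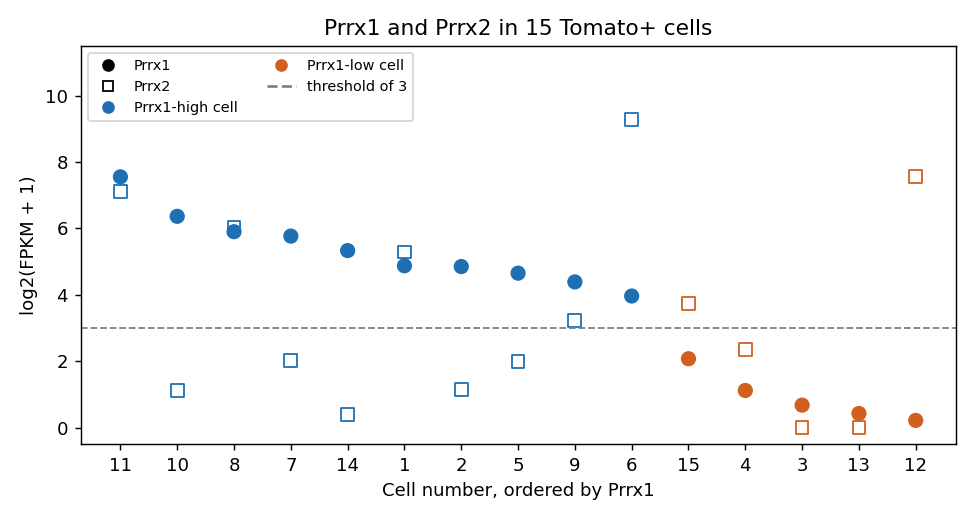
Levels of Prrx1 (filled circles) and Prrx2 (open squares) as log2(FPKM + 1) in each of the 15 cells, ordered by Prrx1, with Prrx1-high cells in blue and Prrx1-low cells in orange. The dashed line is the threshold of 3 that made the sets; Prrx2 lies above it in 5 high cells and in 2 low cells (7.57 in cell 12 and 3.75 in cell 15).

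The labelled tissue was checked against stromal progenitor markers. All 19 listed stromal genes with a row were detected in 9 of the 10 high cells, in cell 4 and in cell 12, and 17 or 18 of them in the remaining cells. The mean level of the list ran from 7.01 to 9.30 in the high cells and stood at 7.63, 9.06, 6.81, 6.32 and 8.65 in low cells 3, 4, 12, 13 and 15. Both sets therefore carried stromal transcripts, with the lowest list means in low cells 12 and 13. Dcn, Gsn, Sparc and Ly6a were not analysed here.

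The promoters of 3 genes are printed as examples, and no difference below rests on them. They are Prrx1, which made the sets, and Cd36 and Plin2, a pair of lipid genes with higher medians in the low cells. Each runs from 250 bases before to 50 bases after the RefSeq start in GRCm38.p6, 5′ to 3′ on the gene's own strand. The Prrx1 window is chr1:163313601-163313900, the Cd36 window chr5:17835847-17836146 and the Plin2 window chr4:86670010-86670309, all on the minus strand. Capitals mark TAATTA, a homeodomain palindrome, in Prrx1, and TGACCT, the reverse complement of the nuclear receptor half-site AGGTCA, in Cd36 and Plin2.
Prrx1: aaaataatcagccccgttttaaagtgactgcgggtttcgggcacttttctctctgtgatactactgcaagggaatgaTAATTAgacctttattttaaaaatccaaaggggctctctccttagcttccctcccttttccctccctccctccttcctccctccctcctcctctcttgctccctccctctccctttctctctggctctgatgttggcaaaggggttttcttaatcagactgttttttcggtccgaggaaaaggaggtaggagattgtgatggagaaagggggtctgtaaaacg
Cd36: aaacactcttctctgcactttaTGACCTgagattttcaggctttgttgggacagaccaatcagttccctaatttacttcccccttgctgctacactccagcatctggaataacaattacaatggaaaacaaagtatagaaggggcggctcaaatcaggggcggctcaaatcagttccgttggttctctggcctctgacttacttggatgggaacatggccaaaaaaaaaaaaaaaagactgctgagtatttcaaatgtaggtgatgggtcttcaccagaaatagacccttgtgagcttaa
Plin2: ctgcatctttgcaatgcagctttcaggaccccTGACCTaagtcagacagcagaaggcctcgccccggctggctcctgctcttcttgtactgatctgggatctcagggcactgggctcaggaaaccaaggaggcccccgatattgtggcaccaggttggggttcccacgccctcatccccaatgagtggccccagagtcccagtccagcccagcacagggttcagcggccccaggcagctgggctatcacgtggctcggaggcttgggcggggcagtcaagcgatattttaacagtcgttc

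Both motifs were searched on both strands of every RefSeq promoter of this length, and they share no overlap with each other in these 3 windows. The window of Thbs3, a gene with a higher median in the high cells, was also taken and held neither motif. TAATTA was present in 6.12% of the 27025 genes with a promoter and in 2.92% of the 5891 tested genes that had one. It was present in 3.31% of the 543 such genes higher in Prrx1-high cells and in 1.88% of the 638 higher in Prrx1-low cells. AGGTCA was present in 18.1% of all genes, 14.5% of tested genes, 14% of those higher in high cells and 14.7% of those higher in low cells. These shares are a description: a match is not a binding site, and a missing match says only that these letters are not in the window.

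Across the transcriptome the division separated few genes completely. Of 7424 genes that reached 1 FPKM in at least 3 cells, Prrx1 aside, 712 had a median at least 2 log2 units higher in the Prrx1-high cells (9.59%) and 820 at least 2 log2 units higher in the Prrx1-low cells (11%). These are the backgrounds for every list below. When each cell was left out in turn, 306 (4.12%) stayed past this size in the high direction and 357 (4.81%) in the low direction. Of the genes named below as higher in the high cells, Ackr3, Adamts5, Cd248, Cd9, Cfb, Clu, Col16a1, Cxcl14, Dgat1 and Egfr did not stay past it. Nor did Hprt, Igfbp6, Il6st, Meox2, Mmp3, Osr1, Ugdh, Vcan and Vegfa. In the low direction Apoe, Cdk1, Col4a1, Fbln5, Fgf10, Fzd4, Hoxa5, Hspg2, Id1, Ier3, Ltbp1, Nr3c1, Sparcl1, Tcf7l2 and Thbs2 did not. The median difference over all tested genes was 0.0053, and the median size without its sign was 0.68. In 325 of the 712 genes the low-cell median was under 1 FPKM, and in 434 of the 820 the high-cell median was.

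Cells of one set were not much more alike than cells of different sets. Spearman correlations across the 7424 genes, which are not independent replicates, had a median of 0.456 over the 45 pairs of high cells, 0.417 over the 10 pairs of low cells and 0.428 over the 50 mixed pairs. Low cells 3 and 4 and high cell 14 had a higher median correlation with the other set than with their own. The number of rows at a cell's lowest value, the available sign of breadth, overlapped between the sets, with 930 to 1974 in the high cells and 1182 to 1576 in the low cells.

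Complete separation, with every cell of one set above every cell of the other, was found for 3 genes in each direction (0.0404% each). How many genes an arbitrary division into 10 and 5 cells would separate was not tested. The counts are therefore no result about Prrx1, and the genes are described only. Ltbp4, which encodes a matrix protein that binds latent TGF-beta, ranged from 1.36 to 6.38 in the high cells with a median of 4.66. In low cells 3, 4, 12, 13 and 15 it stood at 1.23, 1.20, 1.36, 0.24 and 1.16, so the lowest high cell, cell 1, lay just above the highest low cell. The difference was 3.46, and 3.45 without cell 13.

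Lhfp ranged from 6.78 to 8.81 in the high cells and stood at 6.20, 6.33, 1.00, 5.26 and 6.64 in low cells 3, 4, 12, 13 and 15, a difference of 1.03. Its sets touched closely, and only cell 12 was far below the others. Cers6, a ceramide synthase, met the definition only at the floor of the scale: all 5 low cells printed as 0.00, and 3 of the 10 high cells detected it.

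In the low direction the separated genes were Asap1, Ccl27a and Olfm2. Asap1, which encodes a regulator of Arf GTPases and of the cytoskeleton, ranged from 0.07 to 6.96 in the high cells (median 4.91) and stood at 8.04, 7.0, 8.24, 7.70 and 8.78 in low cells 3, 4, 12, 13 and 15. All 5 low cells were thus above all 10 high cells, by a difference of −3.12, or −3.22 without cell 13. Olfm2, an olfactomedin family gene, was detected in none of the high cells and stood at 3.32, 3.97, 0.19, 6.10 and 4.19 in the low cells in the same order, so cell 12 did not detect it either. Ccl27a, a chemokine gene, stood at 5.40, 7.08, 4.51, 4.13 and 5.06 in the low cells and at 2.05 or less in the high cells, but it has near-identical copies and overlaps Il11ra1, so its value is uncertain.

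Several committed preadipocyte genes, lipid genes among them, were higher in the Prrx1-low cells. In the committed preadipocyte list, 9 of 21 tested genes were higher in the low cells by at least 2 log2 units (42.9%, against a background of 11%) and 2 were higher in the high cells, with a median difference of −1.27 against 0.0053 over all tested genes. Without cell 13, 10 of the 21 were higher in the low cells and none in the high cells, and the median difference was −1.16. The list was fixed with earlier results of these cells known.

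Cd36, a fatty acid translocase, stood at 2.05, 9.22, 8.76, 8.48 and 6.63 in low cells 3, 4, 12, 13 and 15. In the high cells it ranged from 0.00 to 8.20, with a median of 1.48. Cell 6 was the exception among the high cells at 8.20, since the next highest, cell 5, stood at 2.91, and cell 3 was the exception among the low cells. The difference was −7.00, and −6.22 without cell 13.

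Fabp4, the cytosolic fatty acid carrier of the adipocyte lineage, stood at 9.74, 13.69, 13.26, 13.69 and 10.60 in the low cells in that order. The high cells ranged from 1.24 to 11.96 with a median of 7.37. Only cells 5 and 6 among the high cells, at 10.00 and 11.96, reached into the range of the low cells. The difference was −5.89, and −4.56 without cell 13. The level of 13.69 is the top rank of a cell, so its equality in cells 4 and 13 carries no meaning.

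Lpl, the secreted lipoprotein lipase, stood at 9.98, 10.08, 10.81, 6.69 and 10.05 in the low cells and at 1.19 to 10.30 (median 6.58) in the high cells. Plin2, which coats lipid droplets, stood at 8.78, 10.14, 9.45, 12.47 and 4.07 in the low cells and at 0.67 to 9.04 (median 6.33) in the high cells. For Lpl the lowest low cell was cell 13, and for Plin2 it was cell 15, so the low cells were not ordered alike for the 2 genes. The differences were −3.47 for Lpl and −3.12 for Plin2, or −3.48 and −2.78 without cell 13.

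Outside the list, Nr1h3, the oxysterol receptor LXR alpha that turns on cholesterol and lipid genes, stood at 6.56, 7.33, 5.81, 9.65 and 1.89 in the low cells. It was at 0.93 or less in 7 high cells and at 5.52, 4.98 and 3.95 in high cells 1, 14 and 8. The difference was −6.22, and 4 of the 5 low cells lay above all high cells. Apoe, a lipid carrier of the list, was uneven among the low cells, with 13.26 in cell 3, 12.09 in cell 12 and 10.79 in cell 15 but 4.14 in cell 4 and 2.04 in cell 13. Its difference of −4.82 was −1.49 without cell 3 or 12.

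Other members of the list higher in the low cells were the basement membrane genes Col4a1 (difference −2.67) and Hspg2 (−2.01), the matricellular gene Sparcl1 (−2.45) and the glutamyl transferase gene Ggt5 (−3.00). Cd9 and Cxcl14 were higher in the high cells, by 2.45 and 2.53, and by 1.56 and 1.60 without cell 13. Cd9, a tetraspanin, was lowest in low cells 12 and 13 (1.89 and 2.19). Icam1 and Dlk1, surface and secreted markers of committed preadipocytes, differed by 0.18 and 1.09, less than the threshold.

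The mean of the committed preadipocyte list stood at 5.55, 5.79, 5.86, 5.15 and 5.99 in low cells 3, 4, 12, 13 and 15. In the high cells it ranged from 3.24 in cell 1 to 6.79 in cell 6. Thus 7 of the 10 high cells lay below all low cells, while cells 5 and 14 lay within the low range and cell 6 above it. Cell 6 detected all 21 listed genes, had the lowest Prrx1 level of the high cells and the highest Prrx2 level of any cell.

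Genes outside the fixed list with large differences in the same direction included lipid and metabolic enzymes. Enpp2, which encodes autotaxin, the enzyme that makes lysophosphatidic acid, stood at 8.08, 7.88, 9.04, 0.42 and 8.88 in low cells 3, 4, 12, 13 and 15 and at 0.28 to 7.06 (median 1.27) in the high cells. Car3, the carbonic anhydrase abundant in adipocytes, stood at 0.55, 6.45, 12.98, 1.96 and 6.71 in the low cells and at 0.00 to 7.09 (median 0.66) in the high cells. Cell 13 was thus the low outlier of Enpp2, and only cell 12 had Car3 above all high cells. The differences were −6.81 for Enpp2 and −5.78 for Car3. Car3 was −3.67 without cell 4 and −3.54 without cell 12 or 15, and turned to 0.62 when Prrx1 was divided at 1 FPKM instead, which moves cells 4 and 15 to the high set.

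Further genes among the 12 largest differences in the low direction were Pxmp4 (−7.17), a peroxisomal membrane protein, Pgm2 (−6.38), a phosphoglucomutase family enzyme, and Ldhb (−6.40), a lactate dehydrogenase subunit. Pxmp4 stood at 4.31, 7.87, 7.70, 0.06 and 8.42 in low cells 3, 4, 12, 13 and 15, so cell 13 was the exception, and was detected in 4 of the 10 high cells. Others of the 12 were Cd36, Enpp2, Nr1h3, Coa6 (−6.84), Zfp830 (−6.46), Cela1 (−6.41), Psmb9 (−6.29) and Pcca (−6.22). Coa6, Psmb9 and Pcca overlap Tarbp1, Tap1 and Ggact, so reads of each pair may not have been told apart. Leaving out 1 low cell brought several of these nearer to 0. Coa6 was −3.67 without cell 12 and −3.50 without cell 13 or 15, and Zfp830 was −3.68 without cell 4 and −3.66 without cell 13 or 15. Cela1 was −3.40 without cell 3 or 12 and −3.45 without cell 13. Pcca was −3.44 without cell 3 or 13 and −3.56 without cell 12, Psmb9 −4.11 without cell 3 or 12, and Ldhb −4.17 without cell 3 or 13.

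Mature adipocyte genes did not share this direction as a group. Of 7 tested, 1 was higher in the low cells (Car3) and 1 in the high cells (Dgat1, a triglyceride synthesis enzyme, 2.41), and the median difference was 0.07. The set medians do not show that low cell 12 stood apart, with a list mean of 5.57. The mean was 0.86 to 2.07 in the other low cells and 0.42 to 2.49 in the high cells. The part of cell 12 in other differences was not tested beyond the values given without it. Dgat1 turned to −2.76 with Prrx1 divided at 1 FPKM and to −0.18 as a difference of means. Fasn, Scd1, Acaca, Pnpla2 and Cfd, which serve fatty acid synthesis, desaturation, lipolysis and the complement factor adipsin, differed by −0.69 to 0.64. Adipoq and Plin1 were not analysed here.

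Among adipogenic transcription factors 13 of 15 tested genes had a higher median in the low cells, but only 2 by at least 2 log2 units (13.3%), and the median difference of −0.82 became −0.23 without cell 12. Tcf7l2, the Wnt effector, differed by −2.62 and Nr3c1, the glucocorticoid receptor, by −2.33. Klf4 went the other way by 2.54. Pparg, the master regulator of adipocyte differentiation, stood at 1.29, 0.20, 5.50, 9.29 and 1.07 in low cells 3, 4, 12, 13 and 15. It was thus detected in all low cells but cell 4, with cells 3 and 15 just past 1 FPKM. Among the high cells it was detected in 3 of 10, at up to 6.25. Its difference was −1.13, and its highest levels lay in cells of both sets.

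**Figure D2:**
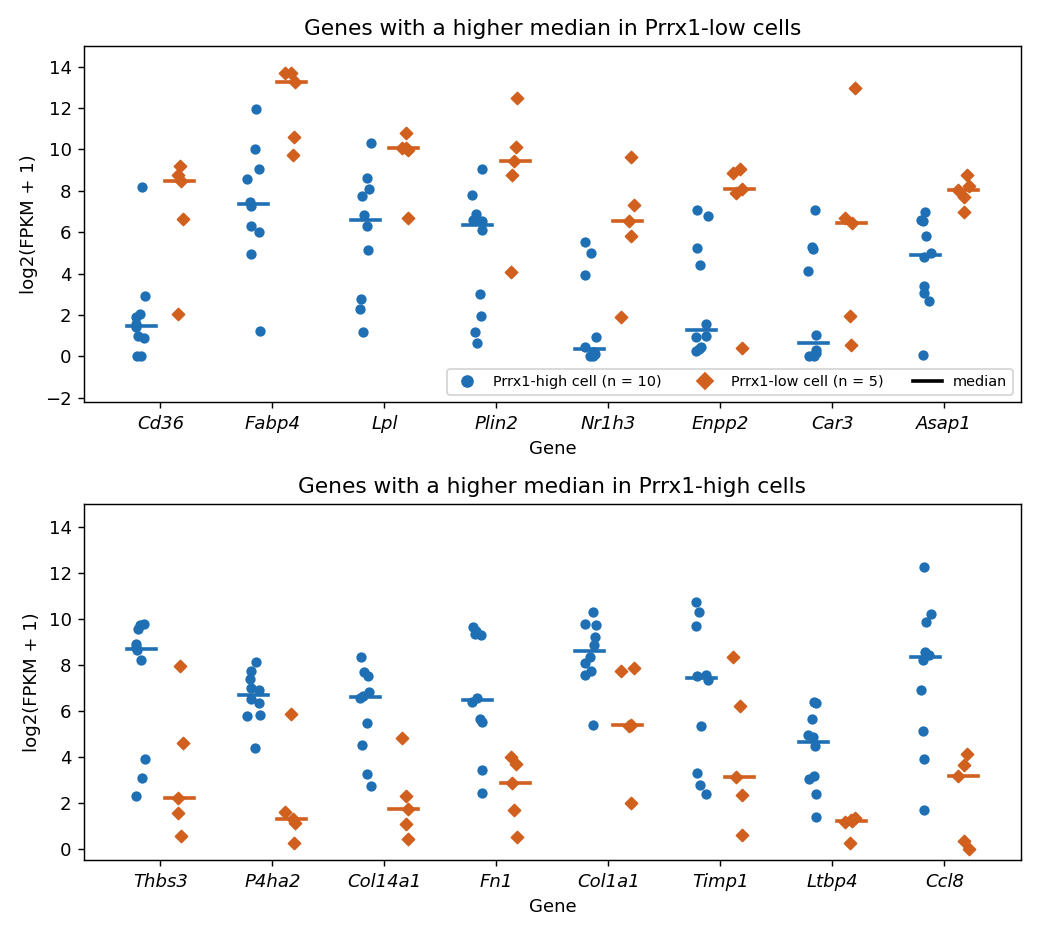
Levels as log2(FPKM + 1) of 16 genes in each Prrx1-high cell (blue circles, 10 cells) and Prrx1-low cell (orange diamonds, 5 cells), with the median of each set as a bar. In the upper panel the Asap1 points do not overlap, while 3 high cells reach the lowest low cell for Cd36 and 2 for Fabp4; in the lower panel Ltbp4 alone does not overlap.

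Some genes of the extracellular matrix and its processing were higher in the Prrx1-high cells, while most matrix genes differed by less than 2 log2 units. In the matricellular and matrix remodelling list, 11 of 40 tested genes were higher in the high cells by at least 2 log2 units (27.5%, against a background of 9.59%) and 4 were higher in the low cells, with a median difference of 0.46. Without cell 13 the counts were 9 and 5 and the median difference 0.24. The median was 0.06 without cell 12 and 1.34 without cell 4. With Prrx1 divided at 1 FPKM it was 1.92, and 17 genes were higher in the high cells and 2 in the low cells.

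Col14a1, a fibril-associated collagen, ranged from 2.72 to 8.36 in the high cells with a median of 6.61. In low cells 3, 4, 12, 13 and 15 it stood at 1.73, 2.28, 1.06, 0.43 and 4.84. Only cell 15, the low cell nearest the Prrx1 threshold, reached into the high range, where it lay above high cells 5, 6 and 14. The difference was 4.87, and 4.6 without cell 13. Among the high cells alone, Col14a1 had a Spearman correlation with Prrx1 of 0.54 over 10 cells, which share an unknown number of mice.

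Fn1, the fibronectin of provisional and interstitial matrix, ranged from 2.42 to 9.65 in the high cells (median 6.48) and stood at 2.88, 3.68, 1.67, 0.50 and 4.01 in the low cells. High cells 6 and 14 lay among the low cells, and 8 of 10 lay above all of them. The difference was 3.60, and 3.20 without cell 13. Col1a1, the main fibrillar collagen chain, ranged from 5.38 to 10.30 in the high cells (median 8.61) and stood at 5.35, 7.85, 5.41, 2.00 and 7.74 in the low cells. Its difference of 3.21 was 2.04 without cell 13, the lowest cell.

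P4ha2, a subunit of the enzyme that hydroxylates collagen prolines, stood among the 12 largest differences. It ranged from 4.38 to 8.11 in the high cells (median 6.70) and stood at 1.28, 5.87, 1.13, 1.61 and 0.23 in low cells 3, 4, 12, 13 and 15. Cell 4 was the only low cell in the high range, and the difference of 5.42 was 5.50 without cell 13. Thbs3, a thrombospondin of connective tissue, stood at 8.22 or more in 7 high cells and at 2.30 to 3.91 in high cells 5, 6 and 14. Its low-cell levels were 2.20, 7.96, 1.56, 0.54 and 4.61, and the difference of 6.52 was 5.31 without cell 13. Thbs3 overlaps Mtx1, so part of its level may belong to that gene.

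Other genes among the 12 largest differences in the high direction came from unrelated groups. Dguok, a mitochondrial deoxyguanosine kinase, ranged from 0.32 to 8.80 in the high cells (median 6.85) and stood at 0.52, 0.41, 2.20, 0.00 and 0.58 in the low cells, a difference of 6.34. High cells 5, 6 and 14, which were also low for Thbs3, lay within the low range of Dguok. Pdgfrl, a PDGF receptor-like gene, differed by 5.72, and 8 of the 10 high cells lay above all low cells. The rest of the 12 were Adm and Mgp, described below, Siva1 (6.24), Osgep (6.04), Mthfsl (6.01), Fmo1 (5.86), Jam2, a junctional adhesion molecule (5.56), and Akap9, a kinase anchor (5.53). Akap9 overlaps Cyp51, and Mthfsl was 3.19 without cell 13.

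Proteases and their inhibitors did not all share the direction. Timp1, a metalloproteinase inhibitor, differed by 4.32 and ranged from 2.38 to 10.73 in the high cells, against 2.35, 3.11, 6.20, 0.61 and 8.33 in the low cells. Without cell 3 or 13 the Timp1 difference was 2.78. Timp3, its relative bound to the matrix, differed by −2.82, with low-cell levels of 7.31, 8.47, 1.21, 9.83 and 6.79. The inhibitor genes thus differed in opposite directions, each with overlap. The protease gene Mmp23 differed by 4.28 and Mmp3 by 2.60, but Mmp3 by 1.09 without cell 13 and Mmp23 by 2.73 without cell 12 or 13. Mmp2 and Mmp14, the gelatinase and its membrane-bound activator, differed by −0.07 and −0.12.

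Further matrix genes higher in the high cells were Loxl2, a collagen cross-linking oxidase (3.26), Has1, a hyaluronan synthase (3.15), Fbln1 (2.70), Mfap5 (2.84), the elastin gene Eln (2.29), Adamts5 (2.27) and Vcan (2.04). Those higher in the low cells were Timp3, Fbln5 (−2.48), Sparcl1 (−2.45) and Thbs2 (−2.07). Among 17 tested collagen genes 3 were higher in the high cells (Col14a1, Col1a1 and Col16a1, 17.6%) and 1, Col4a1, in the low cells. The median difference of the collagens was −0.17, so fibrillar and basement membrane chains lay on both sides of 0 at this division. The collagen median was 1.06 with Prrx1 divided at 1 FPKM.

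The Dpp4 progenitor list pointed the same way as the matrix genes and shares Fn1 and Mfap5 with them. Of 19 tested genes 8 were higher in the high cells by at least 2 log2 units (42.1%) and 1, Igfbp5, in the low cells, with a median difference of 1.04. Without cell 13 the counts were 5 and 1 and the median difference 1.23. The 8 were Pcolce2, an enhancer of procollagen processing (3.93), Fn1, Tmem100 (3.40), Ugdh, which makes the sugar of hyaluronan (2.97), Mfap5, Creb5 (2.47), the chemokine scavenger Ackr3 (2.36) and Cd248 (2.18).

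Dpp4 itself and Pi16, the defining surface markers of these progenitors, differed by 0.57 and 0.23. Dpp4 was detected in 4 high cells and 1 low cell and reached 7.93 in the high set. Cells 1 and 7 had the highest list means, 7.40 and 5.44, and the mean ran from 2.71 to 4.55 in the other high cells. It stood at 2.86, 4.0, 2.36, 1.38 and 3.48 in low cells 3, 4, 12, 13 and 15, so 4 of the 10 high cells (1, 2, 7 and 10) lay above all low cells. Igfbp5, an IGF-binding protein, stood at 5.58, 8.45, 5.91, 7.96 and 7.81 in the low cells against 1.01 to 9.92 (median 3.96) in the high cells, a difference of −3.85.

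**Figure D3:**
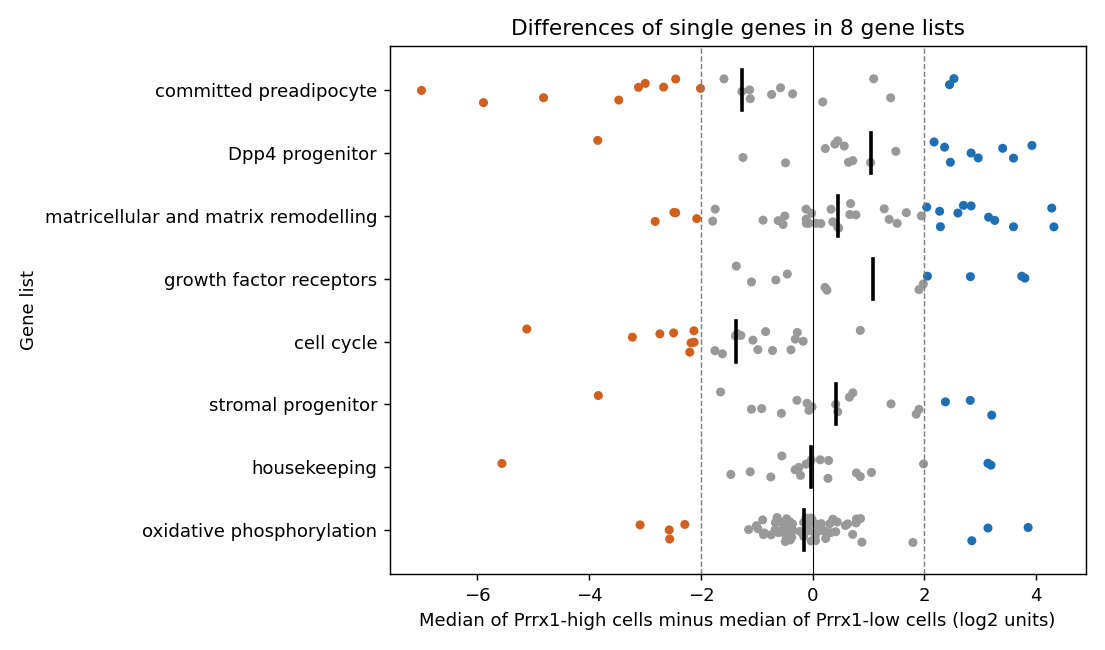
Difference of medians, Prrx1-high minus Prrx1-low, in log2 units for each tested gene of 8 gene lists. Points in blue or orange lie at least 2 log2 units (dashed lines) above or below 0, and the black bar is the list median. The committed preadipocyte (−1.27) and cell cycle (−1.37) medians lie left of 0, the Dpp4 progenitor (1.04) and growth factor receptor (1.08) medians right of it, and the housekeeping (−0.03) and oxidative phosphorylation (−0.16) medians near 0.

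Some receptor and growth factor genes were higher in the Prrx1-high cells. Of 12 tested receptor genes 4 were higher in the high cells by at least 2 log2 units (33.3%) and none in the low cells, with a median difference of 1.08 that was 0.19 without cell 3 and 0.39 without cell 12. Ghr, the growth hormone receptor, ranged from 1.49 to 7.78 in the high cells (median 6.14) and stood at 1.98, 2.34, 5.03, 0.06 and 7.10 in the low cells. All low cells but cell 13 thus lay in the high range, and the difference of 3.80 was 2.46 without cell 3 or 13.

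Il6st, the signalling subunit shared by receptors of the interleukin-6 family, differed by 3.74, but by 1.45 without cell 13. Osmr, the oncostatin M receptor that pairs with it, differed by 2.83 and Egfr by 2.06. Osmr stood at 0.33, 1.05, 0.27, 0.15 and 5.32 in the low cells, with cell 15 alone in the upper part of the high range of 0.20 to 6.51. Pdgfra, the receptor that marks fibroblastic progenitors, went the other way within the threshold, at −1.09 and at −1.71 without cell 13.

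Of 20 tested IGF and growth factor genes 6 were higher in the high cells (30.0%) and 2 in the low cells, with a list median of 0.0008. Without cell 13, 4 were higher in each set and the median was −0.18. With Prrx1 divided at 1 FPKM the median was 1.61, and 8 genes were higher in the high cells and 3 in the low cells. Igf1, the main product of growth hormone action, ranged from 3.21 to 9.22 in the high cells (median 7.09) and stood at 4.77, 3.54, 9.11, 0.12 and 3.57 in the low cells, a difference of 3.51. Adm, the vasodilator peptide adrenomedullin, differed by 6.50, with 8.65 in low cell 4 and at most 2.43 in the other low cells. Adm was itself uneven among the high cells, at 2.18 or less in cells 1, 9 and 11.

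The other growth factor genes higher in the high cells were Mdk (midkine, 5.15), Fgf7 (5.08), Igfbp6 (3.07) and Vegfa (2.03). Fgf7 stood at 6.09 in low cell 3 and at 0.77 or less in the other low cells, and was detected in 6 of 10 high cells. Fgf10, which signals through the same receptor isoform as Fgf7, differed by −2.92, and Igfbp5 was the other gene higher in the low cells. The relatives Fgf7 and Fgf10 thus had opposite signs in these cells.

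Transforming growth factor beta and BMP genes were balanced. Of 32 tested, 2 were higher in the high cells (Ltbp4 and Gdf10, 2.89) and 2 in the low cells (Ltbp1, −3.89, and Id1, −2.10), with a median difference of 0.05. Ltbp1, a relative of Ltbp4, stood at 4.92, 5.51, 0.47, 0.39 and 5.97 in low cells 3, 4, 12, 13 and 15. Its high levels lay in cells 3, 4 and 15. Its difference was −1.96 without cell 3 and −1.66 without cell 4 or 15, and with Prrx1 divided at 1 FPKM it was 0.82. The receptors Tgfbr2, Tgfbr3 and Bmpr1a differed by 0.78, 0.34 and 1.06.

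The Cd142 stromal list, named for a described stromal population, had 4 of 13 tested genes higher in the high cells (30.8%) and 2 in the low cells, with a median difference of 0.74 and of 0.29 without cell 13. Mgp, an inhibitor of calcification, ranged from 3.53 to 13.69 in the high cells (median 9.37) and stood at 2.46, 3.20, 6.61, 0.56 and 10.12 in the low cells. Low cells 12 and 15 lay within the high range, and the difference of 6.17 was 4.47 without cell 13. Meox2, a homeobox gene, differed by 2.42, and by −2.53 with Prrx1 divided at 1 FPKM. F3, which encodes Cd142 itself, differed by 0.78.

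Of 29 tested mesenchymal and positional transcription factors 3 were higher in the high cells (10.3%) and 3 in the low cells, shares close to the background. Osr1 and Osr2, zinc finger factors of connective tissue, differed by 3.36 and 2.56, but Osr1 by 1.02 without cell 13. Twist2, a bHLH factor of mesenchyme, stood at 4.95, 5.54, 5.80, 0.00 and 0.96 in the low cells and at up to 6.23 in the high cells. Its difference of −4.17 was −2.47 without cell 3 and −2.18 without cell 4 or 12. Hoxa5 and Zeb2 differed by −3.35 and −2.70, and Hoxa5 by −1.84 without cell 4 or 15.

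Correlations with Prrx1 within the Prrx1-high cells, which the division did not order, are given for 4 genes. Over the 10 high cells Cd9 had a Spearman correlation with Prrx1 of 0.72 and Plin2 of −0.73. For Ltbp4 and Asap1, whose sets do not overlap, the values within the high cells were −0.13 and 0.07. The 4 genes are given as a description over few cells from an unknown number of mice, and were chosen after their values were seen. The share of all tested genes with correlations of this size is not given. The values therefore do not show that these genes covary with Prrx1 more than other genes do.

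Markers of other cell types and of the cell cycle were set beside these differences, since cell 13 carried some of them. Of 22 tested cell cycle genes 8 were higher in the low cells (36.4%, against 11%) and none in the high cells, but 2 and 1 without cell 13, 4 and 1 without cell 15, and 1 and none as log2(FPKM + 10). The list mean was 7.98 in cell 13, 1.82 to 2.93 in the other low cells and 0.98 to 2.42 in the high cells. Cdk1, the kinase of mitotic entry, stood at 3.42, 0.00, 0.44, 11.34 and 3.23 in low cells 3, 4, 12, 13 and 15. Cell 13 detected 25 of the 26 cell cycle genes with a row, and low cells 3 and 15 detected 19 each, against 5 to 11 in the high cells. Its part in the differences of other genes was not tested beyond the values given without it.

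**Figure D4:**
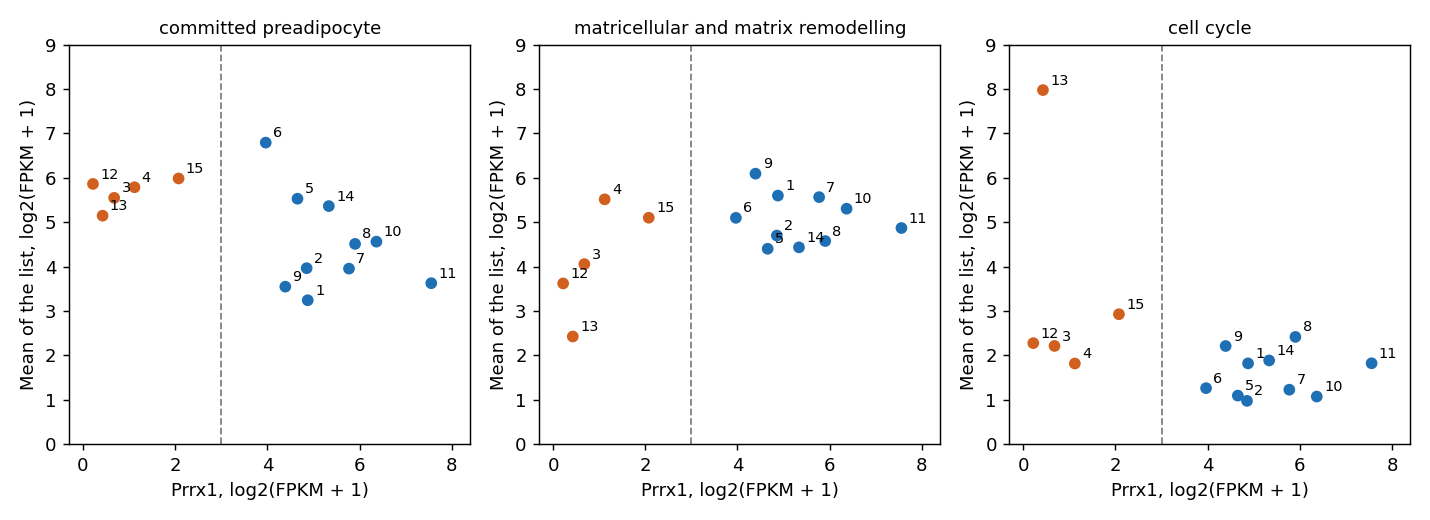
Mean level of 3 gene lists as log2(FPKM + 1) against the Prrx1 level in each numbered cell, with Prrx1-high cells in blue, Prrx1-low cells in orange and the threshold of 3 dashed. The low cells lie between 5.15 and 5.99 for the committed preadipocyte list, cell 13 is lowest for the matricellular list at 2.43, and cell 13 is alone at 7.98 for the cell cycle list.

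The mural list, for pericytes and smooth muscle of vessels, was not divided by Prrx1. Its mean was highest in high cell 5 (7.74) and low cell 13 (5.79) while the other 13 cells had means of 0.86 to 2.63. Of 7 tested mural genes none was higher by 2 log2 units in either set. Higd1b stood at 10.98 in cell 5 and 10.68 in cell 13, and Rgs5 at 10.18 and 6.90. The sets thus hold 1 such cell each.

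Among endothelial markers 5 genes were tested, of which 2 were higher in the low cells (Cd36, which is also a preadipocyte gene, and Plvap, −5.06) and 1 in the high cells (Ly6c1, 3.80, which has a near-identical copy and is uncertain). Plvap, a protein of capillary pores, stood at 5.56, 6.86, 7.10, 0.12 and 0.47 in low cells 3, 4, 12, 13 and 15 and at 4.59 to 6.53 in high cells 2, 8, 11 and 14. Its difference was −3.17 without cell 3 and −2.52 without cell 4 or 12. Tek, a defining endothelial receptor, was at 0.37 or less in all low cells, and Pecam1, Cdh5 and Kdr were not analysed here. Of the 5 tested genes 4 had a higher median in the low cells, Cd36 among them. The median difference of the list was −1.63, and −1.27 without cell 13. The list mean was 2.59 to 4.49 in the low cells and 1.30 to 4.27 in the high cells. The part of endothelial transcripts in the Cd36 difference was not tested.

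Csf1r, the receptor of macrophages and the only immune marker analysed here, differed by 0.22. It stood at 3.81, 6.39 and 3.35 in high cells 1, 2 and 7, above all low cells, which were at 1.78 or less, and its part in the differences was not tested. The glial genes Mbp and S100b differed by 0.79 and −0.71. Housekeeping genes were balanced, with 2 of 19 higher in the high cells (Hprt and Sdha), 1 in the low cells (Gusb, −5.56) and a median difference of −0.03. Actb, Eef1a1 and Ppia differed by 0.14, −0.03 and −0.12. Of 67 tested oxidative phosphorylation genes 3 were higher in the high cells and 4 in the low cells, with a median of −0.16, so neither set stood apart in these broad groups.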

How the data were processed

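Each of the 15 libraries holds 1 Tomato+ cell, amplified with the SMART-Seq v4 3' DE chemistry and made into a Nextera XT library, per the labels' protocols. TopHat2 and Cufflinks were used on GRCm38, per the submitters' processing notes. Those notes, as used here, give no versions or settings. The authors deposited 1 table of 8446 rows, named as FPKM, whose values end at 13.69 and were read as log2(FPKM + 1). The sorted columns were equal to within 0.0354 above 0.2, so the deposited log2 values had been quantile-normalized over the cells. Both points come from the values. Each cell therefore has 4369 rows at 1 FPKM or more whatever its content. Depth is unknown, and no interval is given. Levels of long genes may be understated, because 3' reads were divided by full transcript length.

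Cells were divided at a Prrx1 level of 3. Of 8441 distinct identifiers, 8431 matched reference gene names, and coordinates are those of GENCODE M21. For 7424 genes at 1 FPKM in at least 3 cells the medians of the sets were compared, and 1021 rows were not tested. A gene was called at a difference of 2 log2 units, 4-fold on the FPKM + 1 scale. The steps were also run on simulated cells with small, even noise and shifts larger than the threshold. Such shifts pass by construction, so this run checks the code and says nothing about the calls in these cells. Named genes were Prrx1 and Prrx2, those without overlap, the 12 largest differences in each direction that stayed past 2 with each cell left out, and of each list the members past 2 (up to 6) or the 2 largest; further list members are named by role after their values were seen. Of 645 genes in 29 lists, 446 had a row; the mesothelial and epithelial and the muscle lists had none. The cartilage, bone and tendon list (2 tested), the marrow and mesenchymal stem cell list (7 tested, 2 higher in each set) and the anti-adipogenic list (14 tested, 2 higher in the high and 1 in the low cells) are given here only. Members and lists were chosen with earlier results of these data known. Some genes that the rule names are not reported here. Overlapping genes are uncertain, since counting by strand is not stated. Python 3.11.15, numpy 2.4.6, pandas 2.3.3, scipy 1.17.1 and matplotlib 3.10.9 were used.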

Additional observations from a re-analysis of the deposited data

How the results depend on the processing

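The counts depend on how a difference is measured. Genes higher in Prrx1-high cells numbered 712, and 360 as a difference of means, 185 as log2(FPKM + 10) and 325 at a threshold of 3 log2 units. Genes higher in Prrx1-low cells numbered 820, and 421, 240 and 433 under the same settings. With 1 cell left out in turn they ran from 621 to 776 and from 806 to 992. The 3 genes without overlap in the high direction became 6 with no filter on low values, 34 with Prrx1 divided at 1 FPKM and 48 with cells 4 and 15 left out, a setting chosen after seeing the data. In the low direction the 3 genes became 5, 35 and 50. Dividing at 1 FPKM or leaving out cells 4 and 15 keeps only cells 3, 12 and 13 low. Complete separation is easier to meet with fewer low cells, so these counts cannot be set directly against the 3. Leaving out 1 cell gave 3 to 14 in each direction, with 14 without cell 3 or 4 in the high direction and 14 without cell 15 in the low direction; 9 cells moved the first count by over 1.5 times (2, 3, 4, 5, 6, 12, 13, 14 and 15) and 8 the second (3, 4, 5, 6, 11, 12, 13 and 15). Of 120 named genes, 11 with a difference of at least 2 log2 units changed sign under some setting. Smaller differences also crossed 0, such as that of Prrx2. With Prrx1 divided at 1 FPKM the differences were Adam12 1.61, Car3 0.62, Cpe 2.41, Dgat1 −2.76, Ier3 1.13, Itgav −2.54, Kitl 0.065, Ltbp1 0.82, Meox2 −2.53, Ndufb5 −0.85 and Thy1 1.95. With cells 4 and 15 left out they were Adam12 0.59, Cpe 1.03, Dgat1 −0.80, Itgav −1.38, Ltbp1 0.56, Meox2 −0.74, Ndufb5 −0.14 and Thy1 1.25, and Dgat1 was −0.18 as a difference of means. The cause was not tested. Of all other values of these genes under an alternative, 2180 moved by less than the spread between cells and 80 by more, and for lists 424 and 13. With Prrx1 divided at 1 FPKM, 4 lists moved by more and 19 by less. In that setting the collagen median went from −0.17 to 1.06 and so changed sign. The matricellular median went from 0.46 to 1.92, and that of IGF and growth factors from 0.0008 to 1.61. The committed preadipocyte median stayed below 0, at −1.08. No paired analysis was possible because all cells form 1 group and the result comes from no test. The unknown depth limits every level near 0.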

Other observations

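Some chemokine genes differed between the sets, in both directions. Of 20 tested chemokine and inflammatory genes 3 were higher in the Prrx1-high cells by at least 2 log2 units (15%, against 9.59% of all genes) and 4 in the Prrx1-low cells (20.0%, against 11%). Without cell 13 the counts were 2 and 3, and the median difference went from −0.04 to −0.99. Ccl8, a chemoattractant of monocytes, ranged from 1.71 to 12.27 in the high cells (median 8.33) and stood at 3.18, 3.65, 0.00, 0.33 and 4.15 in low cells 3, 4, 12, 13 and 15. High cells 6 and 9 alone lay in the low range, and the difference was 5.15. Cxcl10, an interferon-induced chemokine, went the other way: it stood at 2.30, 3.79, 8.42, 8.02 and 6.47 in the low cells and at 2.69 or less in 9 of the 10 high cells, with 5.05 in cell 10. Its difference of −5.49 was −4.14 without cell 13. Ccl11, the eosinophil attractant eotaxin, stood at 10.50, 10.54, 9.45, 0.87 and 11.58 in the low cells and at 1.73 to 10.90 in the high cells, a difference of −3.34. Cxcl13, which attracts B cells, differed by −3.81, with 13.69 in cell 3 and 1.64 in cell 13. Tnfaip6, a hyaluronan-binding protein induced by inflammation, was higher in the high cells by 2.77.

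Of 14 tested Wnt genes 1 was higher in the high cells, the secreted Wnt-binding protein gene Sfrp4 (3.34), and 2 in the low cells, Tcf7l2 (−2.62) and the receptor gene Fzd4 (−2.11). Without cell 13, Tcf7l2 and Fzd4 differed by −1.36 and −1.07. Of 15 tested genes in the complement list 3 were higher in the high cells (among them Clu and Cfb, by 2.59 and 2.40). The 1 higher in the low cells was C1qtnf1 (−3.70), a C1q-related gene that is not itself a complement component. Without cell 13 the list had 1 gene in each direction. With Prrx1 divided at 1 FPKM it had 7 genes higher in the high cells and 1 in the low cells. Cd44, a hyaluronan receptor, was higher in the high cells by 3.28, and 5 of the 10 high cells lay above all low cells. Of 24 tested immediate early and heat shock genes none was higher in the high cells and 2 were higher in the low cells (Dnajb1, −3.65, and Ier3, −2.15). All cells were digested at 37 °C, and no undigested cells were analysed here.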
